A study of Rattus norvegicus with 4 samples.

Results

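Lysosome and V-ATPase genes were followed in rat liver after partial hepatectomy, in which lobes of the organ are cut away and the remnant regrows. The set held every gene of the deposited table whose symbol starts with Atp6v, plus 26 chosen lysosomal genes, wherever 1 or more of the libraries were off 0. It came to 44 of the 12874 genes of the series with such a value, and 40 of the 44 were among the 9083 genes that passed a filter on low levels. Of the 48 genes the rule named, Atp6v0a4, Atp6v1b1, Atp6v1e2 and Atp6v1g3 were listed at 0 in every library. Cathepsin L stood in the table under its older symbol Ctsl1 and was matched by its gene ID, 25697.

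The lysosome is the acidic compartment in which cells degrade proteins, glycans, lipids and worn-out organelles. Its cathepsins and other hydrolases work at low pH, which the V-ATPase maintains by pumping protons with a V1 sector that splits ATP in the cytosol and a V0 sector that carries the protons through the membrane. In liver, hepatocytes use lysosomes for autophagy and the turnover of lipid and glycogen, and Kupffer cells, the resident macrophages, are especially rich in them. The transcription factor TFEB is known to switch on many lysosomal genes through a short DNA motif called CLEAR.

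Poly(A)-selected liver RNA of Lewis rats (strain label LEWIS, allotype label RT1L) was sequenced on an Illumina MiSeq in 4 libraries, 1 per group. One liver was naive, and 3 were partially hepatectomised and then treated into a vein with saline, with cells labelled ASCs-siRNC or with cells labelled ASCs-miR27b. These are called the naive, saline, siRNC and miR27b livers. The labels do not spell out ASCs, which was taken to mean adipose-derived stem cells, and what the cells carried is given only by those names. The sources used here do not give the rats' age or sex, the time from surgery to collection, the donor of the cells or whether animals were pooled. No liver was operated on without treatment or treated without surgery, so surgery, saline and time cannot be told apart between the naive and the saline liver.

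With 1 library per group there was no replicate and no test, so each comparison describes 2 libraries and not 2 conditions. The deposited values are log2 values centred near the middle library of each gene, where 0 is the gene's own centre and does not mean absence. A log2 fold here is the difference of 2 such values, and a gene was called at 2-fold, a log2 fold of 1. The size factors of the libraries lay between 0.956 and 1.039, while total reads cannot be derived from these values. Instead, the rounding of the stored values places a gene in a high class, from 2 to the power of 8 normalized reads upward, in a middle class, from 16 reads up to there, or under 16. The class follows the library in which the gene is lowest, so its other libraries can lie higher. Of the 44 genes, 23 were in the high class, 16 in the middle class and 1 under 16, and exact reads could be recovered for 4. From counting reads alone, the SD of a log2 fold is 0.51 at the lower edge of the middle class and 0.13 at that of the high class, and differences between animals come on top of it. Levels of different genes were not compared, because the values hold only differences within a gene. In whole liver, fewer cells of a type and less RNA per cell cannot be told apart.

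The CLEAR motif is the known feature that ties these genes to TFEB, so their promoters were read first. RefSeq promoters on the rat build GRCr8, 250 bases before to 50 after the start of the gene, were found for 34 of the 44 genes. The CLEAR core TCACGTGA, a palindrome that reads the same on both strands, stood in 5 of the 34 (14.7%), against 0.777% of all 33469 rat promoters of that length. The shorter E-box CACGTG, which lies inside that core and is also a palindrome, stood in 7 of the 34 (20.6%) against 6.42% of all. The motif is already known from lysosomal genes, so a higher share in a set chosen as lysosomal is no independent result. All promoters include those of genes that did not pass the filter. Holding the full core were Lamp1, Ctsd, Mcoln1, Atp6v0d1 and Atp6v0e1, and Gaa and Glb1 held only the shorter form. The 200 bases before the start are shown for Lamp1, which held the core at 2 places, for the protease gene Ctsd and the proton pump gene Atp6v0d1, which held it at 1, and for Grn, which had the highest fold of all 40 genes against naive and held neither form. Capitals mark the core or the shorter form, and the last base printed is the base just before the start. Positions are chr16:83075064-83075263 on the minus strand for Lamp1, chr1:206968822-206969021 on the minus strand for Ctsd, chr19:50357249-50357448 on the minus strand for Atp6v0d1 and chr10:87887634-87887833 on the plus strand for Grn.
Lamp1: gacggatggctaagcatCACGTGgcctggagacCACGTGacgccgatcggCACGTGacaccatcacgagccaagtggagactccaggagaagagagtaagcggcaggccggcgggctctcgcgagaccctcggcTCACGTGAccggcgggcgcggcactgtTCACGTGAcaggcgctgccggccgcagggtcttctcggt
Ctsd: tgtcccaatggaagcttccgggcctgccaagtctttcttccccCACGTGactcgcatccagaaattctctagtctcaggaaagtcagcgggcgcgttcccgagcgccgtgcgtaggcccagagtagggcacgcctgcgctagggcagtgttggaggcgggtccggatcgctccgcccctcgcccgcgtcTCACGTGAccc
Atp6v0d1: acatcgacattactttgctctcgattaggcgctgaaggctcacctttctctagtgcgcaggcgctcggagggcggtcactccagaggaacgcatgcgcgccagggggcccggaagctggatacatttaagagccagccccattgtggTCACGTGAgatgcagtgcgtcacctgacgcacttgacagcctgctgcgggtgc
Grn: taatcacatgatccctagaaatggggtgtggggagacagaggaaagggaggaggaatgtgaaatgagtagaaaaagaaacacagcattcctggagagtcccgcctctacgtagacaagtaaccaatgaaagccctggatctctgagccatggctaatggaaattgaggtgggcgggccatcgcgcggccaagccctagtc
A match describes these letters only, and the binding of TFEB was not measured.

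Most of the lysosomal genes were somewhat higher in each hepatectomised liver than in the naive one, by little. Of the 40 genes, 31 were above naive in the saline liver, 26 in the siRNC liver and 31 in the miR27b liver, against 48.5%, 48.9% and 46.9% of all genes past the filter. Their median log2 folds were 0.20, 0.13 and 0.20, and those of all genes were -0.01, -0.01 and -0.03. The 3 comparisons share the naive library, so they are not independent of each other. None of the 40 reached 2-fold in the saline liver in either direction, where 4.62% of all genes were called higher and 3.2% lower, nor in the siRNC liver, where 4.89% were higher and 3.04% lower. In the miR27b liver Grn and Asah1 were called higher and none lower, against 6.89% and 3.27% of all genes. With 40 genes, these counts of called genes were near or under the share of all genes. Beside these values, 16 macrophage and Kupffer cell markers had median log2 folds against naive of 1.26, 1.14 and 1.48 in the saline, siRNC and miR27b liver. Medians of the hepatocyte, endothelial and stellate markers in these comparisons are given further below.

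**Figure D1:**
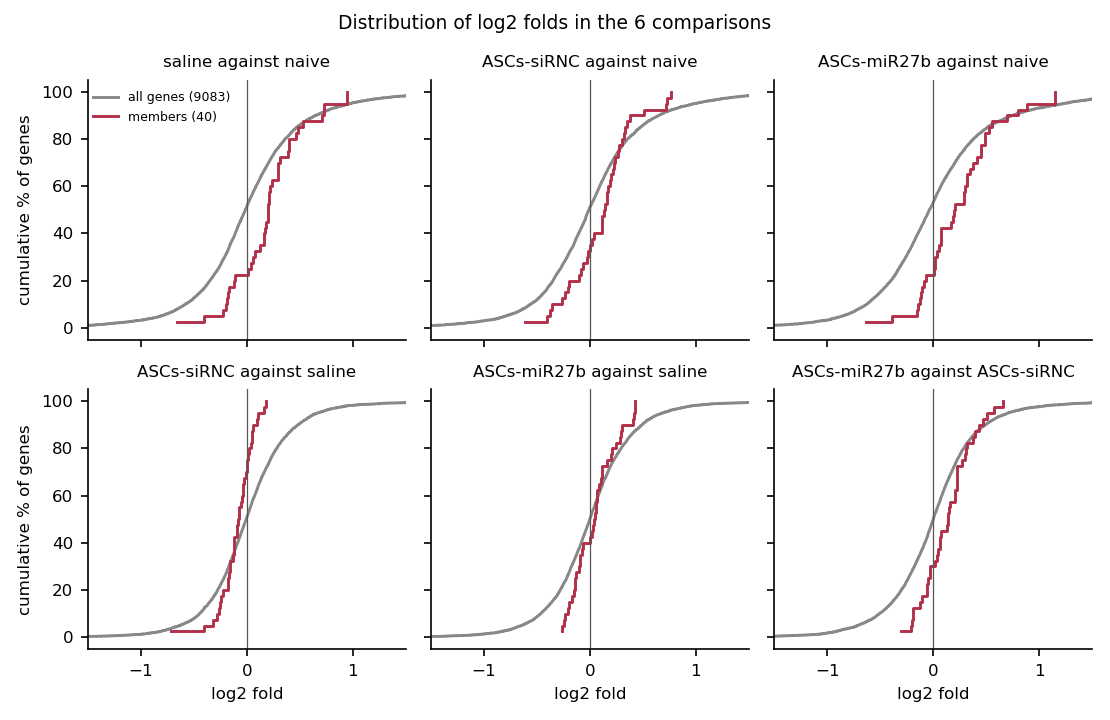
Cumulative percent of genes (y axis) at or below each log2 fold (x axis) for the 40 genes of the set, named members, and all 9083 genes past the filter in the 6 comparisons. The curves of the set lie to the right of all genes in the middle of the 3 naive comparisons, with medians of 0.20, 0.13 and 0.20, and meet them near 2-fold.

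At 1.5-fold, a limit chosen after the values were seen, 5 genes were higher in the saline liver than in naive, namely Ctsl, Asah1, Grn, Atp6v1c1 and Atp6v0b, and 1 was lower, Atp6v0a1, against 11.5% and 9.91% of all genes. The siRNC liver had 3 higher (Asah1, Grn and Atp6v1c1) and Atp6v0a1 lower, against 11.5% and 9.29%. The miR27b liver had 5 higher (Ctsl, Ctsz, Asah1, Grn and Atp6v0a2) and again Atp6v0a1 lower, against 13.2% and 11.5%. Asah1 and Grn were on the higher side and Atp6v0a1 on the lower side in each of the 3. With a pseudocount of 5, and also with a stricter filter, the saline counts were 2 higher and 0 lower, and the lower call of Atp6v0a1 was lost in all 3 comparisons. The pseudocount treats each gene without recovered reads as lying at the bottom of its class, so it may shrink middle-class folds too much. With the stricter filter, which leaves out genes of the middle class such as Asah1, Atp6v1c1, Atp6v0b and Atp6v0a1, 1 was higher in siRNC and 3 were in miR27b.

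**Figure D2:**
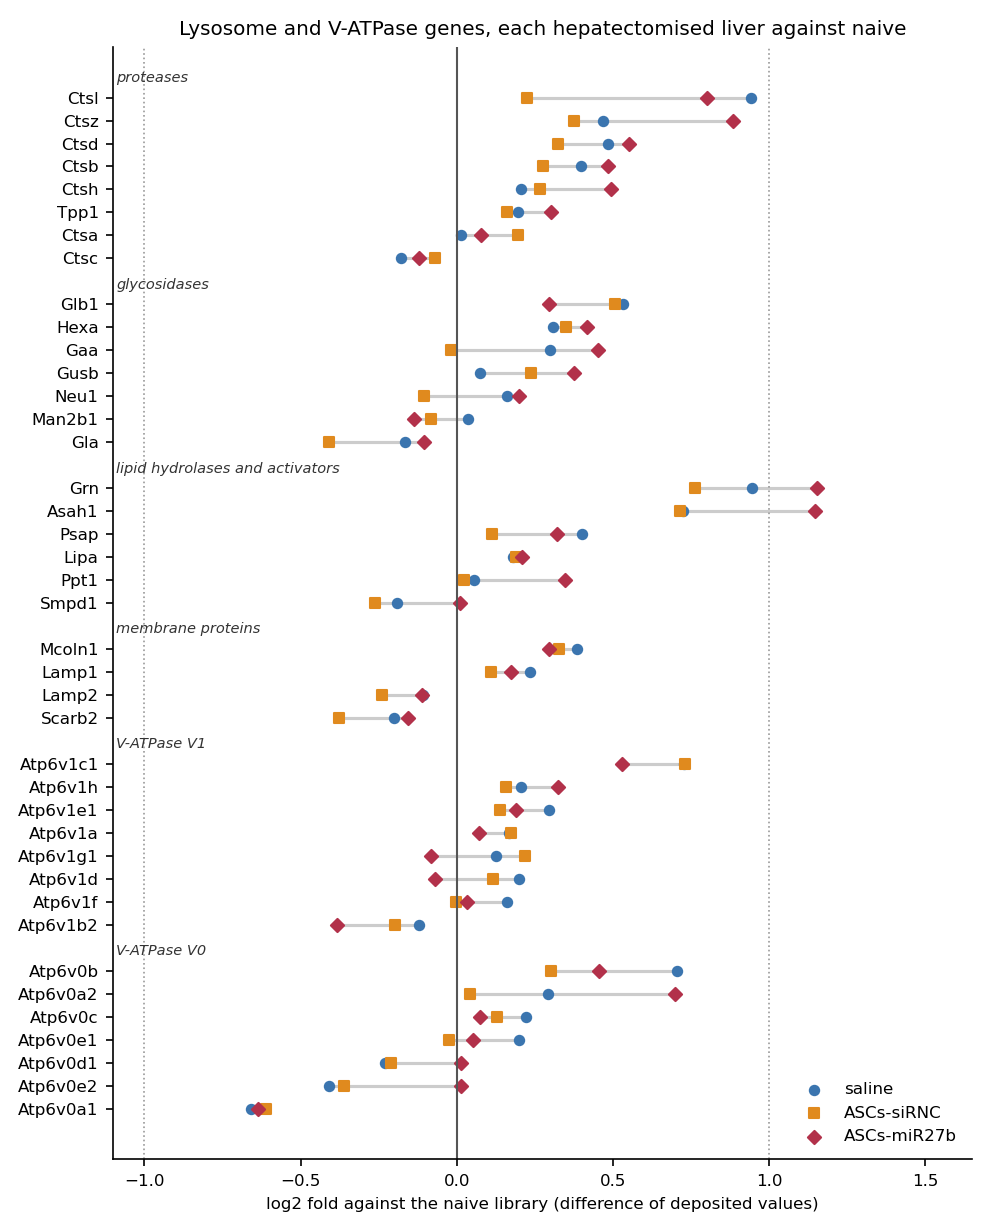
Log2 fold of each of the 40 genes against the naive library (x axis) in the saline (circle), siRNC (square) and miR27b (diamond) liver, ordered within role groups (y axis), with dotted lines at 2-fold and 1 library per point. Only Grn and Asah1 in the miR27b liver lie past a dotted line, and Atp6v0a1 stands lowest with its 3 points close together.

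The spread among the 3 hepatectomised livers gives the only yardstick the design holds, although they differ in treatment. For the 40 genes the range over these 3 livers had a median of 0.23 and ran from 0.03 to 0.72 on the log2 scale. In 10 genes the naive value lay below all 3 by more than their range, against 11.9% of all genes, and these were Ctsb, Ctsd, Tpp1, Glb1, Hexa, Asah1, Grn, Lipa, Mcoln1 and Atp6v1c1. Only Atp6v0a1 lay above all 3 by more than their range in naive, against 11.1% of all genes. This measure, too, was chosen after the values were seen.

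Proteases were above naive in 7 of 8 genes in each of the 3 livers, with median log2 folds of 0.30 in the saline, 0.25 in the siRNC and 0.49 in the miR27b liver. Ctsl, a cysteine protease that cuts proteins in the lysosome, had deposited log2 values of -0.63 in the naive, 0.32 in the saline, -0.40 in the siRNC and 0.18 in the miR27b liver. Its naive and siRNC livers were low and the other 2 high, so its fold against naive was 0.94 in saline, 0.22 in siRNC and 0.80 in miR27b. Ctsz, a carboxypeptidase, stood at -0.47, 0.00, -0.09 and 0.42 in the same order. It was lowest in naive and highest in miR27b, 0.88 above naive on the log2 scale there and 0.51 above siRNC. Ctsd, the main aspartic protease, followed the same order of livers with values of -0.49, 0.00, -0.16 and 0.07. Ctsb, a cysteine protease, was 0.40, 0.28 and 0.49 above naive in the saline, siRNC and miR27b liver. Ctsh, an aminopeptidase, was 0.21, 0.27 and 0.49 above, and Tpp1, which clips short peptides off protein ends, 0.20, 0.16 and 0.30. Ctsa, a carboxypeptidase that also protects beta-galactosidase and sialidase, differed least in this group on the higher side, with folds of 0.01, 0.20 and 0.08. Ctsc, the peptidase that activates granule proteases of immune cells, was the exception. Its values of 0.12 in naive, -0.06 in saline, 0.05 in siRNC and 0.00 in miR27b put every hepatectomised liver just under naive, by at most 0.18.

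Glycosidases were less uniform, with medians against naive of 0.16 in the saline, -0.02 in the siRNC and 0.30 in the miR27b liver. Glb1, the lysosomal beta-galactosidase, was the only one of the 40 genes whose reads could be recovered, and it had 134 reads in naive, 206 in saline, 196 in siRNC and 161 in miR27b. Its log2 folds against naive were 0.53 in saline (exact 95% interval 0.21 to 0.86), 0.51 in siRNC (0.18 to 0.84) and 0.30 in miR27b (-0.04 to 0.64). These intervals cover counting error only, and the last of them includes 0. Among the hepatectomised livers no pair of Glb1 counts differed beyond counting error, and the intervals ran from -0.54 to 0.07 for miR27b against saline, from -0.52 to 0.10 for miR27b against siRNC and from -0.31 to 0.27 for siRNC against saline. Gaa, which breaks down glycogen, had log2 values of -0.30 in naive, 0.00 in saline, -0.32 in siRNC and 0.16 in miR27b. The naive and siRNC livers were alike for this gene, and miR27b was 0.45 above naive. Gla, alpha-galactosidase A, went the other way, with 0.16 in naive, 0.00 in saline, -0.25 in siRNC and 0.06 in miR27b. It was highest in naive, and its lowest fold was -0.41 in siRNC. Man2b1, an alpha-mannosidase, stood at 0.07, 0.10, -0.02 and -0.07 in the same order. Hexa, a subunit of beta-hexosaminidase, was 0.31, 0.35 and 0.42 above naive in the saline, siRNC and miR27b liver. Gusb, beta-glucuronidase, was 0.08, 0.24 and 0.38 above, and the sialidase Neu1 had folds of 0.16, -0.10 and 0.20.

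Lipid hydrolases and activator proteins held the pair with the highest folds. Grn (gene ID 29143), which encodes progranulin, a secreted protein that is taken up and cut into granulins in the lysosome, had values of -0.94 in naive, 0.00 in saline, -0.18 in siRNC and 0.21 in miR27b. Its naive liver stood far below the other 3, with folds of 0.94, 0.76 and 1.15. Asah1 (gene ID 84431), the acid ceramidase, had values of -0.72, 0.00, -0.01 and 0.42 in the same order. Its saline and siRNC livers were alike at 0.72 above naive, and miR27b was 1.15 above. Grn was in the high class and Asah1 in the middle class, so counting error weighs more on Asah1. Psap, the precursor of the saposins that present lipids to hydrolases, was 0.40, 0.11 and 0.32 above naive. Lipa, the lysosomal acid lipase, was 0.18, 0.19 and 0.21 above, the narrowest range among the 3 livers in this group. Ppt1, which removes fatty acids from proteins, had folds of 0.06, 0.02 and 0.35. Smpd1, the acid sphingomyelinase, had values of 0.08 in naive, -0.11 in saline, -0.18 in siRNC and 0.09 in miR27b. Its naive and miR27b livers were alike, and the other 2 lay lower.

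Membrane proteins of the lysosome were split, with 2 of 4 above naive in each liver and medians of 0.06, -0.07 and 0.03. Mcoln1, a calcium channel of the lysosomal membrane, had values of -0.33 in naive, 0.06 in saline, 0.00 in siRNC and -0.03 in miR27b. All 3 hepatectomised livers were alike and above naive by 0.38, 0.33 and 0.29. Scarb2, the receptor that carries glucocerebrosidase to the lysosome, had values of 0.20, 0.00, -0.18 and 0.04 in the same order, and its folds were -0.20, -0.38 and -0.16. Lamp1 and Lamp2, the abundant glycoproteins that line the membrane, differed in sign. Lamp1 was 0.23, 0.11 and 0.17 above naive, while Lamp2 had folds of -0.11, -0.24 and -0.11. Tfeb itself lay in the class under 16 normalized reads and did not pass the filter. Its values were -0.55 in naive, 0.08 in saline, 0.02 in siRNC and -1.02 in miR27b, and no difference could be read at this depth.

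V1 subunits of the proton pump were mostly a little above naive, in 7, 6 and 5 of 8 genes in the saline, siRNC and miR27b liver, with medians of 0.18, 0.15 and 0.05. Atp6v1c1, the widespread form of the C subunit that joins the sectors, had values of -0.73 in naive, 0.00 in saline, 0.01 in siRNC and -0.20 in miR27b. Naive was far below the other 3, by 0.73, 0.73 and 0.53. Atp6v1b2, the B subunit of most tissues, had values of 0.12, 0.00, -0.08 and -0.26 in the same order. It was the only V1 gene below naive in all 3 livers, and lowest in miR27b with a fold of -0.38. Atp6v1a, the A subunit that splits ATP, had folds of 0.17, 0.17 and 0.07. Atp6v1e1, Atp6v1g1 and Atp6v1d, subunits of the stalks, had folds in the saline liver of 0.29, 0.12 and 0.20, in the siRNC liver of 0.14, 0.22 and 0.12 and in the miR27b liver of 0.19, -0.08 and -0.07. Atp6v1h, a regulatory subunit, was 0.21, 0.16 and 0.32 above naive, and Atp6v1f lay within 0.16 of naive in every liver. Atp6v1c2 and Atp6v1g2, tissue-restricted forms, did not pass the filter. Atp6v1c2 had 3 reads in naive, 3.178 in siRNC (reads can be counted in parts) and 2 in miR27b, and lay at the floor of 1 normalized read in saline. Atp6v1g2 had 2 reads in naive and lay at the floor in the other 3. Both were so close to the floor that no fold is given here.

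V0 subunits held the only gene of the 40 that was lower than naive by 1.5-fold. Atp6v0a1, one of the isoforms of the large a subunit that forms the proton path, had values of 0.61 in naive, -0.05 in saline, 0.00 in siRNC and -0.03 in miR27b. The 3 hepatectomised livers were within 0.05 of each other and 0.66, 0.61 and 0.64 below naive. Atp6v0a2, another isoform of the same subunit, had values of -0.05, 0.24, -0.01 and 0.65 in the same order. Naive and siRNC were alike, and miR27b stood 0.70 above naive and 0.66 above siRNC. A further isoform, Tcirg1, is named outside the Atp6v series. It had values of 0.45, -0.10, -0.27 and 0.15 and was below naive in all 3 livers, by 0.55, 0.72 and 0.30, while the kidney isoform Atp6v0a4 was listed at 0. Each of these a subunit isoforms with values was in the middle class. Atp6v0b, a subunit of the proton-carrying ring, had values of -0.46, 0.25, -0.15 and 0.00, and its highest fold was 0.70 in saline. Atp6v0c, the main ring subunit, was 0.22, 0.13 and 0.07 above naive. Atp6v0d1, which links ring and stalk, had folds of -0.23, -0.21 and 0.01, and the small subunits Atp6v0e1 and Atp6v0e2 had folds in the saline liver of 0.20 and -0.41, in the siRNC liver of -0.02 and -0.36 and in the miR27b liver of 0.05 and 0.01. Atp6v0d2, an isoform known from osteoclasts and macrophages, did not pass the filter. It had 1 read in naive, 3 in saline and 5 in miR27b and lay at the floor in siRNC, and the interval of miR27b against naive ran from -0.81 to 7.92, so no difference was detectable at this depth.

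Which of the 4 libraries was lowest or highest for a gene showed the pattern without any fold limit. Naive was the lowest library for 24 of the 40 genes (60%) against 29.1% of all genes, and the highest for 6 (15%) against 32.7%. The miR27b library was the highest for 18 (45%) against 24.6% and the lowest for 4 (10%) against 26.5%. Saline was highest for 12 (30%) against 21.3% and lowest for 4 (10%) against 21.8%. The siRNC library was highest for 4 (10%) against 21.3% and lowest for 8 (20%) against 22.5%. The degradative enzymes and activators carried most of this. Of these 21 genes, 15 had naive as the lowest library (71.4%) and 14 had miR27b as the highest (66.7%), among them Ctsb, Ctsd, Ctsh, Ctsz, Gaa, Hexa, Asah1 and Grn. Of the 15 V-ATPase genes, 7 had naive as the lowest library (46.7%) and 4 had miR27b as the highest (26.7%), and saline was the highest library for 6. Among the 24 genes of the set and 2683 of all genes that passed a stricter filter, naive was lowest for 66.7% against 29.3% and miR27b highest for 45.8% against 25.9%. The count of lowest and highest libraries was chosen after the values were seen.

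**Figure D3:**
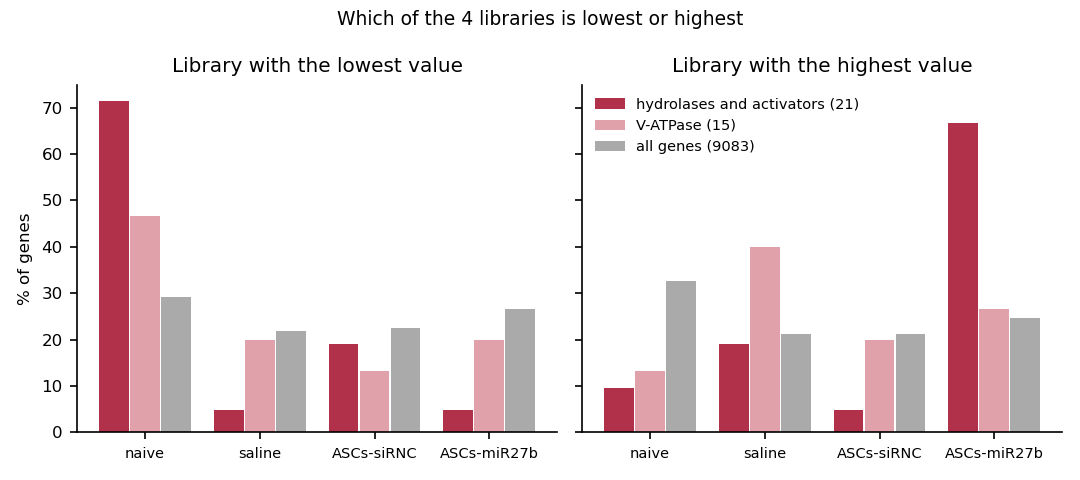
Share of genes (y axis, percent) for which each library (x axis) had the lowest value (left) or the highest value (right), for 21 hydrolases and activators, 15 V-ATPase genes and all 9083 genes past the filter. The hydrolases stand out at naive on the left (71.4% against 29.1% of all genes) and at miR27b on the right (66.7% against 24.6%).

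Among the hepatectomised livers none of the 40 genes past the filter reached 2-fold in any comparison. The siRNC liver lay slightly below saline, with 12 of 40 genes above 0 against 49.1% of all genes and a median of -0.08. Of all genes, 1.73% were called higher and 1.29% lower in that comparison. Ctsl had the lowest fold, -0.72, and Ctsa the highest, 0.18. The miR27b liver was near saline, with 23 of 40 above 0 against 49.8% and a median of 0.04, where 1.75% of all genes were called higher and 1.41% lower. Within this comparison the roles parted. Hydrolases and activators were above saline in 17 of 21 genes with a median of 0.09, and V-ATPase genes in 5 of 15 with a median of -0.13, with V1 genes in 1 of 8. Asah1 and Ctsz were both 0.42 above saline, and so was Atp6v0e2, while Atp6v1d and Atp6v1b2 were 0.27 and 0.26 below. Whether the role groups differ from each other was not tested.

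The 2 cell treatments were compared directly, as they differ by the labelled miR27b against the labelled siRNC. The miR27b liver was above siRNC in 28 of 40 genes against 50.2% of all genes, with a median of 0.14, and 2.3% of all genes were called higher and 1.79% lower. Hydrolases and activators were above siRNC in 17 of 21 with a median of 0.23, and V-ATPase genes in 8 of 15 with a median of 0.04. The sectors of the pump had medians on opposite sides of 0, with V1 genes above siRNC in 3 of 8 and a median of -0.14, and V0 genes in 5 of 7 and a median of 0.15. Their ranges overlapped, from -0.30 to 0.16 for V1 and from -0.05 to 0.66 for V0, and whether they differ was not tested. All 6 lipid hydrolases and activators were on the higher side, from Lipa at 0.02 to Asah1 at 0.43. The highest folds were 0.66 for Atp6v0a2, 0.58 for Ctsl, 0.51 for Ctsz and 0.47 for Gaa. Atp6v1g1 had the lowest, -0.30, followed by Glb1 at -0.21. Beside these values, 15 of the 16 macrophage markers were above 0 in this comparison, with a median of 0.31. Other lists lay on the same side. Hepatocyte markers were above 0 in 6 of 8 with a median of 0.19. Endothelial markers were above 0 in 6 of 7 with a median of 0.26, and stellate and fibroblast markers in 4 of 6 with 0.28. For Ctsl and Gaa the siRNC value was close to the naive one, and both genes were also low in siRNC against saline. These comparisons share libraries, since a low siRNC value moves 2 of them.

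**Figure D4:**
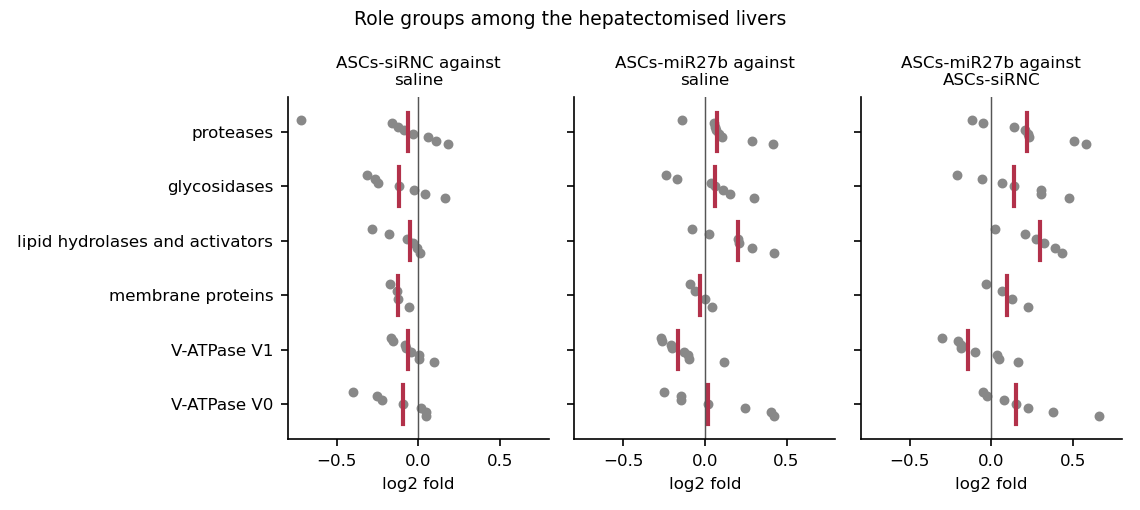
Log2 folds of the 40 genes (points) and their medians (bars) by role group (y axis) in the comparisons siRNC against saline, miR27b against saline and miR27b against siRNC (x axis, log2), with 1 library per group. In the right panel the 6 lipid hydrolases and activators all lie above 0 and the V1 and V0 medians are at -0.14 and 0.15.

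Other lysosomal and autophagy genes from a chosen list showed a smaller shift. Of 107 listed genes, 89 passed the filter, and their medians against naive were 0.05, 0.06 and 0.05 in the saline, siRNC and miR27b liver. In the saline liver 4 were called higher and 2 lower, in siRNC 3 and 2, and in miR27b 6 and 2, shares near those of all genes. Naive was the lowest library for 33 of the 89 (37.1%). The 19 autophagy genes lay slightly below naive, with medians of -0.07, -0.17 and -0.16.

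A few genes of that list had higher folds against naive than any of the 40 genes past the filter. Ctss, a cathepsin of antigen-presenting cells, had values of -1.46 in naive, 0.07 in saline, -0.36 in siRNC and 0.00 in miR27b, which put it 1.53, 1.10 and 1.46 above naive. Laptm5, a lysosomal membrane protein of blood cells, was 1.20, 1.49 and 1.27 above. Lgmn, the asparaginyl endopeptidase that processes cathepsins, was 1.08, 1.07 and 1.22 above. These genes had naive as the low library, and for Ctss the siRNC liver lay 0.43 below saline. Pla2g15, a lysosomal phospholipase, was 1.43, 0.83 and 1.42 above naive, Cd63, a membrane protein of late endosomes, 0.98, 0.97 and 1.09, and Cln3, a lysosomal membrane protein, 0.68, 0.98 and 1.26. At the other end stood Dmxl2, a partner in V-ATPase assembly, with 1.18 in naive, -0.23 in saline, 0.00 in siRNC and 0.05 in miR27b. Hyal1, a hyaluronidase, was also highest in naive, with folds of -1.39, -0.92 and -0.79. The cystine carrier Ctns had folds of -0.99, -0.05 and -1.12, so its siRNC liver was near naive. Arsa, arylsulfatase A, had folds of -0.64, -1.08 and -0.36. The cholesterol transporter Npc1 had -0.66, -0.56 and -0.36, and Tsc1, a brake on mTOR signalling, -0.59, -0.88 and -0.39. The V-ATPase accessory genes Atp6ap1 and Atp6ap2 had mean folds over the 3 livers of 0.15 and 0.08. Tfe3, a relative of TFEB, had 201 reads in naive, 278 in saline, 173 in siRNC and 200 in miR27b, with no common direction. The cathepsin inhibitors Cst3 and Cstb had mean folds of 0.31 and 0.16.

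Most macrophage markers were also higher in the hepatectomised livers than in naive, with medians above those of the lysosomal genes. Of the 16 macrophage and Kupffer cell markers, 13 were called higher than naive in the saline liver, 10 in siRNC and 14 in miR27b. The shares of all genes were 4.62%, 4.89% and 6.89%. Cd68, itself a lysosomal membrane protein of macrophages, had values of -1.61 in naive, -0.10 in saline, 0.00 in siRNC and 0.48 in miR27b. Cd163, a scavenger receptor, had -1.44, 0.52, -0.18 and 0.36, and Marco, another scavenger receptor, -2.45, 0.05, -0.44 and 0.21. Further down the list, Cd14 had folds against naive of 0.12, -0.56 and -0.28, and Mpeg1 of 0.05, 0.24 and 0.48. Both were named after their values were seen. Against saline, 13 of the 16 were above 0 in the miR27b liver, against 49.8% of all genes. Their median was 0.24 there, while siRNC against saline had a median of -0.09. None of the 16 was listed at 0 in every library, and a summed level per library cannot be given because the values hold only differences within a gene. The part of macrophages in the higher values of Grn, Ctsz, Asah1 and the other lysosomal genes was not tested.

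Markers of other cells gave the following values. All 8 hepatocyte markers were in the high class, and their medians against naive were -0.01, -0.23 and 0.08 in the saline, siRNC and miR27b liver. Alb had folds of -0.05, -0.08 and 0.08, Ttr of -0.44, -0.40 and -0.61, and Apoa1 of 0.04, -0.32 and 0.08. Of 7 endothelial markers past the filter, 2, 2 and 3 were called higher than naive, against 4.62%, 4.89% and 6.89% of all genes. Their medians were 0.77, 0.52 and 0.78. The 6 stellate and fibroblast markers past the filter had medians of 0.72, 1.58 and 1.71, with Col1a1 highest in the siRNC liver at 4.50 above naive. T and NK cell markers past the filter were Cd4, Nkg7 and Prf1. Cd4, which rat macrophages also carry, was 0.97, 1.02 and 1.24 above naive. Nkg7 had exactly the same value in naive and saline, although their size factors differ, so both probably lay at the floor of 1 normalized read. Its level class may then be too high. It was higher in siRNC and miR27b, but no fold is given so close to the floor. Prf1 had 6 reads in naive, 4 in saline, 14 in siRNC and 28.6 in miR27b. Nkg7 and Prf1 may have passed the filter through the livers where they were high, so nothing is read from their being called. Cd8a, which failed the filter and was named after its values were seen, had 15, 4, 8 and 12 reads in the same order and was highest in naive. No neutrophil or B cell marker passed the filter, and Mpo, Elane, Cd79a and Jchain were listed at 0. The other neutrophil markers, S100a8, S100a9 and Csf3r, were in the class under 16 normalized reads. Each was lowest in naive and highest in miR27b. The class follows the lowest library, so failing the filter does not show that these markers were low in the other livers. Their values in the naive, saline, siRNC and miR27b liver were -2.21, 0.13, 0.00 and 1.93 for S100a8. S100a9 had -3.87, -1.08, 0.09 and 1.32, and Csf3r had -2.50, -0.75, 0.09 and 0.15. Single markers past the filter were Epcam for cholangiocytes, with folds of 0.99, 0.47 and 0.58, Alas2 for erythroid cells, with 3.12, 2.67 and 3.08, and Acp5 for osteoclasts, with 0.56, 0.42 and 0.65. Fabp4, of adipose and endothelial cells, was 2.97, 3.37 and 4.50 above naive, while Adipoq was listed at 0. Pdgfra, on the same list of adipose and stromal markers, was only 0.65, 0.04 and 0.73 above naive. The part of each of these cell types in the lysosomal results was not tested.

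**Figure D5:**
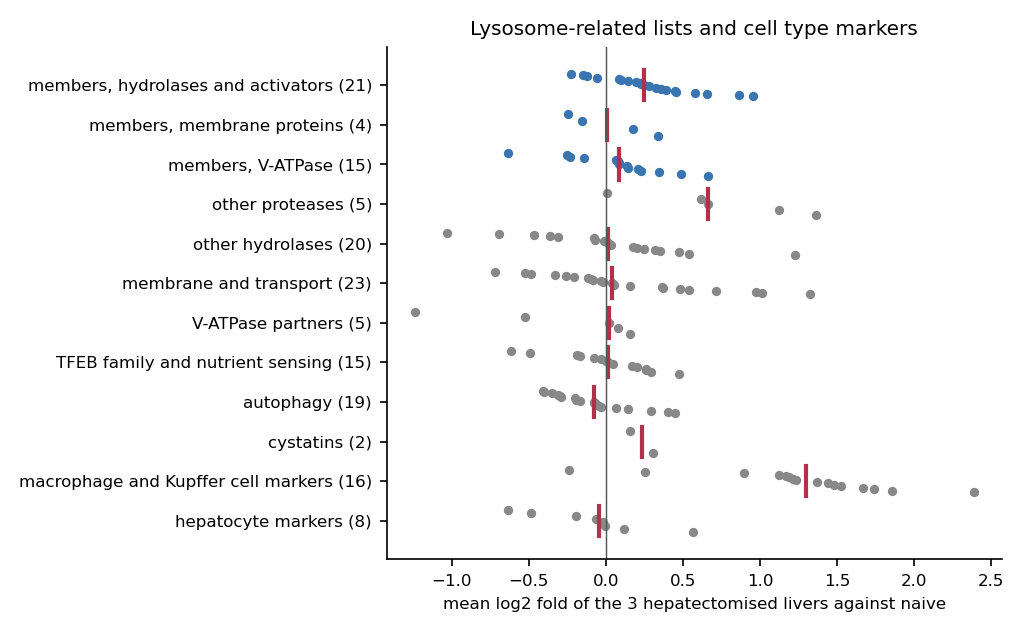
Mean log2 fold of the 3 hepatectomised livers against naive (x axis) for each gene (points) and the median (bar) of the role groups of the set (blue), other lysosome-related lists and markers of macrophages and hepatocytes (grey), with the number of genes past the filter in brackets (y axis). The macrophage markers have a median of 1.30, the hydrolases and activators of 0.24, the V-ATPase genes of 0.09 and the hepatocyte markers of -0.04.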

How the data were processed

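Poly(A)-selected liver RNA was sequenced in 4 libraries, 1 per group, and samples were grouped by their source labels. The deposited table holds log2 values that its header calls normalized. DESeq (version not stated) and the build rn5 stand in the submitters' processing notes, and the sources used here do not give an aligner or a counting tool. The values behaved as reads divided by size factors, set to at least 1 normalized read, on the log2 scale and less a baseline for each gene. Exactly 0 occurs in 1 or more libraries for 77.3% of the 12874 genes that are off 0 anywhere. This reading comes from the values and not from a stated method.

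Reads were searched for as multiples of 1/101 of a read, up to 400 reads, and kept only where a single solution fitted, which recovered 1952 genes. Of the recovered values of genes past the filter, 77.7% were whole within 1e-06 of a read. Other genes received a level class from how finely their stored numbers were rounded, which can be 1 class too high by chance. The filter kept genes with a mean of at least 10 recovered reads or in the middle or high class, in all 9083, and the stricter filter 2683 with at least 50 recovered reads or in the high class. Without recovered reads, a gene low in 1 library can fail the filter even where it is higher in the others. The steps were tested on simulated data.

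Log2 folds are differences of deposited values. Called means at least 2-fold, beside the share of all genes past the filter. Intervals are exact conditional binomial 95% intervals, for counting error only, and PCR copies are not independent molecules. Python 3.11.15, numpy 2.4.6, pandas 2.3.3, scipy 1.17.1 and matplotlib 3.10.9 were used. Values in all libraries were given for genes at least 2-fold apart in any comparison and for the highest and lowest gene of each role group against naive. From the other lysosomal genes the 6 highest and 6 lowest by mean fold and 8 fixed genes were named, and from each marker list up to 3 genes in list order, taken among those past the filter. The genes and lists were chosen with earlier results of these data known. Promoters came from RefSeq on GRCr8, and no coordinates were carried between builds. Alternatives were a pseudocount of 5, no filter, the stricter filter, centring on the median of all genes and the mean in place of the median. For the pseudocount, the lowest library of a gene without recovered reads was set to the bottom of its level class, because its true level is not known.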

Additional observations from a re-analysis of the deposited data

How the results depend on the processing

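Over 5 alternatives each, the median log2 fold of the genes against naive ran from 0.17 to 0.21 in saline, from 0.11 to 0.17 in siRNC and from 0.19 to 0.24 in miR27b. It ran from -0.10 to -0.07 for siRNC against saline, stayed at 0.04 for miR27b against saline and ran from 0.13 to 0.14 for miR27b against siRNC, so no median turned its sign. Naive was the lowest library for 24 of 44 genes with no filter and for 16 of 24 with the stricter filter. Counts of called genes did change. With no filter on low levels, 1 gene was called higher and 2 lower in saline against naive, 1 lower in siRNC against naive and 1 lower in miR27b against naive. With no filter, 1 was called higher and 1 lower in each of siRNC against saline, miR27b against saline and miR27b against siRNC, and these added genes come from the 4 that failed the filter on low levels. In miR27b against naive, where 2 genes were called higher, 1 was with a pseudocount of 5 and 1 with the stricter filter, which leaves out Asah1 by its level class. The pseudocount result depends on the level set for genes without recovered reads. At 1.5-fold, 21 of 48 alternative counts moved by more than 1.5 times, among them the loss of the lower call of Atp6v0a1 given above. With the stricter filter miR27b was the highest library for 11 of 24 genes in place of 18 of 40. No replicate could be left out and no paired analysis was possible because each group holds 1 library. Depth limits Tfeb, Atp6v0d2, Atp6v1c2 and Atp6v1g2, for which no difference can be read.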
